A study of Mus musculus with 12 samples.

Results

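The nuclear genes of the mitochondrial respiratory chain and ATP synthase were followed through 12 mouse retina libraries. Members were the protein-coding genes off the mitochondrial genome whose names begin with Nduf, Uqcr, Cox4 to Cox8 or Atp5, or are Sdha, Sdhb, Sdhc or Sdhd. They were 96 of the 53028 genes listed, and 88 reached a deposited value of 1 in 3 or more libraries and were tested. Complex I gave 7 core, 30 accessory and 8 assembly genes, all tested, complex II gave 4 and complex III gave 8, all tested, complex IV gave 21 with 14 tested, and complex V gave 18 with 17 tested. Ndufa4 and Ndufa4l2 were counted with complex IV, where the Ndufa4 protein is known to sit.

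The 4 groups held 3 libraries each: Pilrb1/2-/- retina at 12 months, Pilrb1/2+/+ retina at 12 months, Pilrb1/2-/- retina at P28 (28 days after birth) and Pilrb1/2+/+ retina at P28. They are called KO and WT here. Pilrb1 and Pilrb2 encode paired immunoglobulin-like receptors of myeloid cells. The deletion was made by CRISPR editing of C57BL/6J zygotes and the line was crossed on to C57BL/6J. The sample labels name Pilrb1/2 alone, while the series text also lists Pilra as deleted. It is a germline deletion, so every cell of the animal carries it. Libraries were poly(A) RNA of whole retina, and no label ties the libraries to animals, so p-values measure the spread between libraries, which may be technical.

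The respiratory chain passes electrons from NADH (complex I) and succinate (complex II) through ubiquinone to complex III and through cytochrome c to complex IV, which reduces oxygen. Complexes I, III and IV pump protons, and complex V, the ATP synthase, uses the resulting gradient to make ATP. Complex II is wholly nuclear-encoded, whereas the other complexes combine nuclear subunits with a few made from mitochondrial DNA. Photoreceptors are among the most energy-demanding cells of the body and pack mitochondria into their inner segments.

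The retina libraries carried an estimated 14.7 to 25.9 M reads, with the commonest low value above 0 taken as 1 read. On that scale 3 reads corresponded to 0.111 to 0.192 CPM (read values scaled to library size). That floor covers counting error alone. Pilrb1 and Pilrb2 lay at or under the floor in WT libraries too, so their values do not check the genotype labels. Pilra stood at 0.441, 1.16 and 0.819 CPM in P28 KO libraries, against 0.133, 0.167 and 0.170 CPM in P28 WT libraries. At 12 months it stood at 0.0556, 0.309 and 0.293 CPM in KO libraries, the first under the floor, against 0.159, 0.221 and 0.268 CPM in WT libraries. Signal was thus above the floor in 5 of 6 KO libraries, although the series text lists Pilra as deleted. Whether these reads came from an intact Pilra gene was not tested. Xist and Y-linked genes gave 3 male libraries in 12-month KO, 2 female and 1 male in 12-month WT, 2 female and 1 male in P28 KO, and 3 male in P28 WT, so sex is tied in part to genotype at each age. Summed rod markers were 26250 to 32680 CPM in 12-month KO and 39220 to 46300 CPM in 12-month WT, with 5 of 10 lower and 1 higher. At P28 the rod sums were 27980 to 31880 CPM in KO and 35700 to 46910 CPM in WT, with 0 of 10 called. Lens genes summed to 37.9 to 4743 CPM in P28 KO and 12.5 to 1759 CPM in P28 WT. At 12 months they summed to 12.92 to 654.9 CPM in KO and 9.735 to 47.1 CPM in WT, with 0 of 9 tested called between genotypes. Whether they came from lens carried over in dissection was not tested. Of the other marker lists, 7 of 10 cone markers were lower at 12 months (962 to 1079 CPM in sum in KO, 1431 to 1567 CPM in WT), 5 of 5 erythrocyte markers were lower (4.33 to 9.94 CPM in KO, 19.2 to 34.1 CPM in WT) and 4 of 5 horizontal cell markers were higher (425 to 502 CPM in KO, 328 to 351 CPM in WT). Of 6 tested microglia markers 4 were lower at 12 months (21.45 to 23.0 CPM in KO, 25.7 to 31.65 CPM in WT). At P28, 3 of 10 cone markers (1042 to 1349 CPM in KO, 1281 to 1561 CPM in WT) and 3 of 5 erythrocyte markers (12.6 to 23.6 CPM in KO, 32.5 to 49.6 CPM in WT) were lower, and 1 of 6 microglia markers was higher (26.9 to 30.0 CPM in KO, 21.0 to 22.1 CPM in WT). All genes gave 23.5% lower and 16.1% higher at 12 months, and 0.491% and 1% at P28. Also at 12 months, amacrine markers gave 3 of 7 lower and 1 higher, and endothelial and pericyte markers 3 of 7 lower. Their sums were higher in KO (701 to 757 and 229 to 236 CPM) than in WT (637 to 682 and 216 to 228 CPM). Mueller glia gave 2 of 8 lower, pigment epithelium 2 of 6, bipolar cells 1 of 9 and astrocytes 1 of 2. Ganglion cells gave 2 of 8 lower and 2 higher. The part of these lists in the member values was not tested. In bulk retina, fewer cells of a type and less RNA per cell cannot be told apart.

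Because the knockout difference of these genes followed the G and C content of their transcripts, the first 120 coding bases of 6 members are shown, from GENCODE transcripts on GRCm38. Capitals mark G and C. Atp5d, Ndufb7 and Atp5g1 are members with large negative 12-month differences (61.9%, 61.1% and 56.9% G and C over the whole coding sequence), and Ndufaf4, Uqcrb and Atp5j are the members called higher (44.9%, 42.9% and 43.5%).
Atp5d: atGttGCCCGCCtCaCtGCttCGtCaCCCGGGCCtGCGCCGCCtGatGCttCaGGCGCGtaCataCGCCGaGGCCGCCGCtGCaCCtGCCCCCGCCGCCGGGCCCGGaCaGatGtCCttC
Ndufb7: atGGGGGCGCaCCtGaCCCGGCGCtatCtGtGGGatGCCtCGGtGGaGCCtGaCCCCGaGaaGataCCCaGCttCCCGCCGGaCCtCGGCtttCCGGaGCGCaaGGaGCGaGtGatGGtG
Atp5g1: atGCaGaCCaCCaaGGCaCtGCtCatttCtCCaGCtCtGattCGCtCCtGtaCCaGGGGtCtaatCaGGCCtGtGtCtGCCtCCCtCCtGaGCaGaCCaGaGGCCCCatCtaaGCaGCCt
Ndufaf4: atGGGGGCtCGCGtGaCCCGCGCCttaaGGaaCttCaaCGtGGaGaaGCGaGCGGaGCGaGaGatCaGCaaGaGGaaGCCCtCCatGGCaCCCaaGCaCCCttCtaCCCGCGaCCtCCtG
Uqcrb: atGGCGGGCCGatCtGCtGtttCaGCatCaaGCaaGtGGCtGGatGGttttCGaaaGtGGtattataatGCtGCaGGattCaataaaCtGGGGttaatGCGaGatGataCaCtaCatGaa
Atp5j: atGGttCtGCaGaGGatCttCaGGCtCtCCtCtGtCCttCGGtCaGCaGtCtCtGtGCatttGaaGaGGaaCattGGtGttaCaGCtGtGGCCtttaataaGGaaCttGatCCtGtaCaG
The printed stretch is 71.7% G and C in Atp5d, 66.7% in Ndufb7, 57.5% in Atp5g1, 62.5% in Ndufaf4, 44.2% in Uqcrb and 47.5% in Atp5j. The stretch of Ndufaf4 is thus rich in G and C although Ndufaf4 was called higher. The whole transcript of Atp5g1 is 46.8% G and C, and the coding transcript of Atp5j, which the stretch comes from, is 56.0%. The most-read transcript of Ndufb7 and of Atp5j was annotated as a retained intron, with 53.6% and 39.5% G and C, and those are the GC values used for both genes in the comparisons.

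Promoters were the 250 bases before to 50 after each gene's start, from RefSeq on GRCm38.p6. Of 95 member symbols 77 matched, giving 82 promoters. Respiratory chain promoters are known for sites of the factors NRF1, the ETS factor GABPA and YY1. The ETS letters CCGGAAG were in 23.2% of member promoters and 8.9% of all 32851 promoters, on either strand. A core of NRF1 sites, GCGCA then any base then GCGC, was in 24.4% of member promoters and 4.6% of all. The YY1 letters AANATGGCG were in 13.4% and 2.4%, and the ERR letters CAAGGTCA in 4.9% and 1.6%. At least 1 of the ETS, NRF1 and YY1 motifs was in 52.4% of member promoters and 14.2% of all, and the median GC content was 58.5% in member promoters and 52.7% in all. Overlaps between motifs were not removed. Promoters of 1 member called lower and of 2 called higher at 12 months are shown with the motif letters in capitals.
Ndufb7 (chr8:83566508-83566807, plus strand, ETS): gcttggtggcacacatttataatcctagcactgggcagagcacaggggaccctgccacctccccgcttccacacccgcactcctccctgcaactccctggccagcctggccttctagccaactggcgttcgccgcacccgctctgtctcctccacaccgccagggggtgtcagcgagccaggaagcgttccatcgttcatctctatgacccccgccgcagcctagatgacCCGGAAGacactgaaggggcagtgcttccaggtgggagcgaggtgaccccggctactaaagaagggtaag
Ndufaf4 (chr4:24897833-24898132, plus strand, NRF1): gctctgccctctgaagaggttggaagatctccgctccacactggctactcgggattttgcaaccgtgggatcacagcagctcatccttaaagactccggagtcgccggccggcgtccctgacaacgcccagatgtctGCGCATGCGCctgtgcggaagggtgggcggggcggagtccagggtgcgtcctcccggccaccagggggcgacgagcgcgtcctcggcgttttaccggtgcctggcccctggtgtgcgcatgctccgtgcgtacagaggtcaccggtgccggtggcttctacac
Atp5j (chr16:84834927-84835226, minus strand, YY1 then ETS): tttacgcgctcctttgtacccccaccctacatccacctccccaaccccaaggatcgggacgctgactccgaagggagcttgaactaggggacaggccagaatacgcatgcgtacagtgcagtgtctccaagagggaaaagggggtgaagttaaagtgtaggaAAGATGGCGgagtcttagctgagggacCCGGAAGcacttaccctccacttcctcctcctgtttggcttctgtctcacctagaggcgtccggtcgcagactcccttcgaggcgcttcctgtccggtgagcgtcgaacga
The promoters shown were picked because they hold a motif. RefSeq gives Atp5j a second promoter (chr16:84835576-84835875, 77.0% G and C), which holds none of the 4 motifs, and both promoters of Atp5d hold none. The ETS letters occur in the Ndufb7 promoter and in 1 of the 2 Atp5j promoters, although Ndufb7 was called lower and Atp5j higher. A match describes these letters and is no measurement of binding.

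Nuclear respiratory genes of every complex were among those lower in 12-month KO retina. By limma over all 16486 tested genes, on log2(CPM + 1) with Benjamini-Hochberg adjustment, 44 of 88 members (50%) fell and 3 (3.41%) rose, against a background of 23.5% of all genes lower and 16.1% higher. The median log2 fold change was -0.36 over the members and -0.03 over all genes. By class it was 0.04 over the complex I assembly factors and 0.02 over complex V, and negative over the other classes. All 3 KO libraries lay below all 3 WT libraries for 49 members (55.7%) and above them for 16, against 32.2% and 27% of all genes. The sign was negative for 58 of the 88, against 52.5% of all genes. The 3 that rose were Ndufaf4, Uqcrb and Atp5j. Summed over all 96 members, the level was 5116 to 5570 CPM in 12-month KO and 5733 to 5922 CPM in 12-month WT, so the groups did not overlap. By class, KO sums lay below WT sums without overlap for complex I accessory subunits and complexes III, IV and V. Those of complex I core subunits and complex II overlapped. Those of the assembly factors were higher in KO, at 182 to 202 CPM against 158 to 166 CPM in WT. Leaving out 12-month KO library 2 left 29 lower calls, against 13.6% of all genes, and in all 12 fits that each left out 1 library 29 of the 44 lower calls and 1 of the 3 higher calls, Ndufaf4, held. The higher calls numbered 10 without P28 KO library 2 (20.7% of all genes), 5 without 12-month KO library 3 or P28 KO library 3, and 1 without 12-month KO library 1 or 2 or 12-month WT library 1 or 3, and the share of all genes higher was 7.93 to 20.7% over the fits that left out 1 library.

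**Figure D1:**
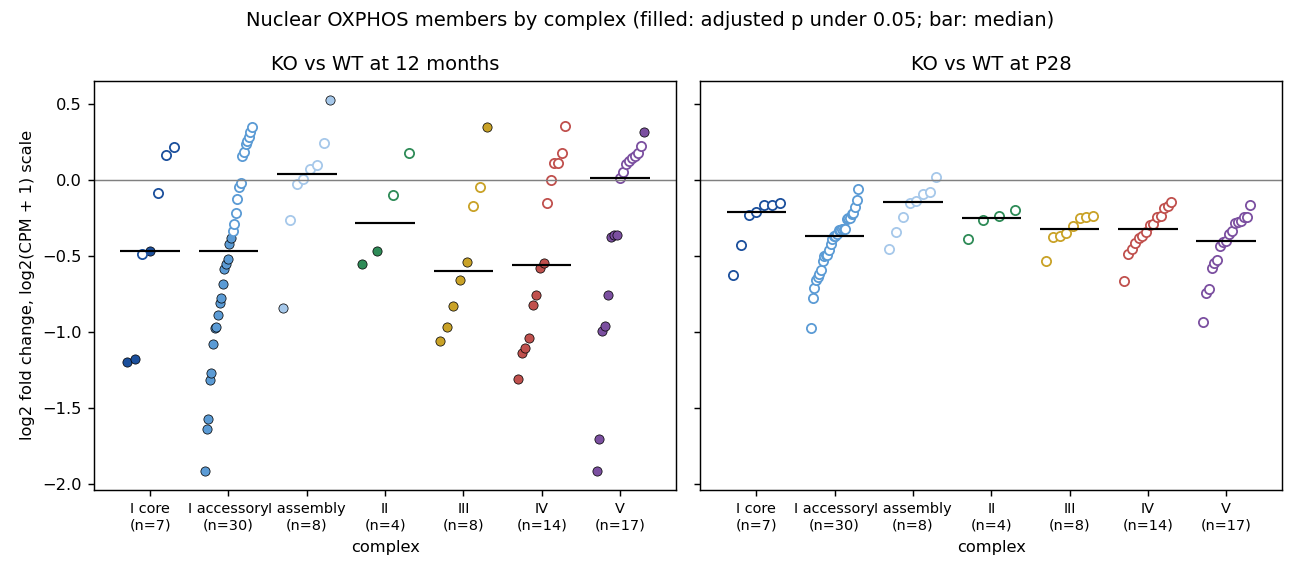
Log2 fold change of each tested member (y axis, log2(CPM + 1) scale) by complex (x axis), KO against WT at 12 months on the left and at P28 on the right. Filled points passed an adjusted p of 0.05 and bars are medians. At 12 months 44 points are called lower and 3 higher, while at P28 87 of 88 points lie below 0 and 0 are called.

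In complex I the core subunits, which carry the flavin and the iron-sulfur clusters, gave 3 of 7 lower and 0 higher. Ndufs8, an iron-sulfur subunit, had 5.11, 1.93 and 3.62 CPM in 12-month KO libraries, against 10.5, 7.44 and 9.16 CPM in 12-month WT libraries. The groups did not overlap, and the log2 fold change was -1.19 ± 0.25 (SE; limma adjusted p = 0.00423). Ndufv1, which binds FMN and takes electrons from NADH, had 22, 12.7 and 27.5 CPM in KO and 49.8, 39.0 and 49.5 CPM in WT, again without overlap. Its log2 fold change was -1.17 ± 0.26 (limma adjusted p = 0.00533). Ndufs1, the largest iron-sulfur subunit, was not called, at 188 ± 5.86 CPM in KO and 162 ± 3.49 CPM in WT (SD, n = 3 libraries each; limma adjusted p = 0.0526).

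Among the 30 accessory subunits of complex I, which surround the core, 17 (56.7%) fell and 0 rose. Ndufb7 (chr8:83566671-83571626 on GRCm38), a subunit on the intermembrane side of the membrane arm, had 2.06, 1.57 and 4.75 CPM in 12-month KO and 17.3, 8.08 and 13.5 CPM in 12-month WT. The highest KO library was below the lowest WT library, and the log2 fold change was -1.91 ± 0.35 (limma adjusted p = 0.00313). Ndufa11, a membrane-arm subunit, had 0.839, 0.166 and 1.06 CPM in KO, with library 2 near the floor, and 5.51, 2.38 and 4.22 CPM in WT. Its log2 fold change of -1.57 ± 0.25 (limma adjusted p = 0.00277) understates the difference, since its values lie near the added 1. Ndufa2 had 3.45, 1.87 and 3.19 CPM in KO and 8.51, 7.5 and 9.20 CPM in WT, and Ndufb8 had 29.0, 21.4 and 28.0 CPM in KO and 51.2, 46.2 and 48.5 CPM in WT. Neither pair of groups overlapped, with log2 fold changes of -1.31 and -0.88 (limma adjusted p = 0.00283 for both).

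The 8 assembly factors named Ndufaf, which build complex I without staying in it, gave 1 lower and 1 higher. Ndufaf3, which works with Ndufaf4 on the ubiquinone module, had 4.53, 2.68 and 4.27 CPM in 12-month KO and 8.74, 6.34 and 7.66 CPM in 12-month WT (log2 fold change -0.84 ± 0.20, limma adjusted p = 0.00761). Ndufaf4 (chr4:24898083-24905001 on GRCm38) was higher, with 86.4, 97.3 and 75.8 CPM in KO and 55.8, 62.4 and 59.7 CPM in WT (log2 fold change 0.53 ± 0.13, limma adjusted p = 0.00762). Both pairs of groups were separate, in opposite directions.

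Complex II, succinate dehydrogenase, gave 2 of 4 lower. Sdhb, its iron-sulfur subunit, had 20.0, 13.8 and 18.3 CPM in 12-month KO and 24.7, 23.4 and 24.3 CPM in 12-month WT (log2 fold change -0.47 ± 0.15, limma adjusted p = 0.0233). Its sign turned and the call was lost once trends with GC and length were taken out (0.0257, limma adjusted p = 0.893). Sdhc, a membrane anchor, had 36.3, 22.8 and 35.4 CPM in KO and 49.8, 43.5 and 43.9 CPM in WT (log2 fold change -0.55 ± 0.16, limma adjusted p = 0.0175). Sdha, the flavoprotein that oxidises succinate, was not called, with 374, 387 and 357 CPM in KO and 321, 316 and 352 CPM in WT (limma adjusted p = 0.0718).

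Complex III gave 5 of 8 lower and 1 higher. Uqcrc1, a core subunit, had 15.9, 11.1 and 18.2 CPM in 12-month KO and 28.5, 25.6 and 26.9 CPM in 12-month WT, without overlap (log2 fold change -0.83 ± 0.17, limma adjusted p = 0.00423). The small subunits Uqcr11 and Uqcr10 had log2 fold changes of -1.06 ± 0.19 and -0.96 ± 0.24 (limma adjusted p = 0.00298 and 0.00879), and the hinge protein Uqcrh one of -0.53 ± 0.14 (limma adjusted p = 0.0105). Uqcrb (chr13:66900617-66905378 on GRCm38), which lies beside a ubiquinone site, had 162, 177 and 149 CPM in KO and 119, 136 and 125 CPM in WT. All 3 KO libraries were above the WT libraries (log2 fold change 0.35 ± 0.12, limma adjusted p = 0.0376). With the GC trend alone removed its sign turned and the call was lost (-0.0403, limma adjusted p = 0.801). Uqcrfs1, the Rieske iron-sulfur protein, averaged 49.0 ± 5.35 CPM in KO and 54.9 ± 1.08 CPM in WT (SD, n = 3 libraries each; limma adjusted p = 0.207).

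Complex IV, cytochrome c oxidase, gave 8 of 14 lower and 0 higher. Cox4i1 (chr8:120668222-120674207 on GRCm38), the common form of subunit IV, had 27.5, 16.7 and 30.0 CPM in 12-month KO and 53.3, 47.4 and 58.4 CPM in 12-month WT, without overlap (log2 fold change -1.11 ± 0.22, limma adjusted p = 0.00363). Cox4i2, its alternative form known from lung and low oxygen, had 2.02, 1.06 and 1.99 CPM in KO and 6.04, 4.80 and 5.90 CPM in WT (log2 fold change -1.31 ± 0.18, limma adjusted p = 0.00244). Per length, Cox4i2 was far below Cox4i1: 2.33 ± 0.715 against 38.3 ± 10.5 summed RPKM in 12-month KO, and 7.68 ± 0.888 against 84.5 ± 8.14 summed RPKM in 12-month WT (SD, n = 3 libraries each). Cox6a1, Cox8a and Cox7a2, the forms used outside muscle, and Cox5b, a subunit used in all tissues, had log2 fold changes of -1.14, -1.03, -0.58 and -0.82 (limma adjusted p = 0.00281, 0.0029, 0.00942 and 0.00621). Ndufa4, by summed RPKM the highest member of the complex (476.6 RPKM over the 12 libraries), was not called, at 247 ± 8.90 CPM in KO and 218 ± 12.5 CPM in WT (SD, n = 3 libraries each; limma adjusted p = 0.24).

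Several members known from other tissues were outside the filter. The muscle form Cox7a1 had 0.252, 0.221 and 0.406 CPM in 12-month KO and 0.830, 0.856 and 0.877 CPM in 12-month WT, all above the floor of 3 reads and without overlap, and 0.213 to 0.374 CPM in P28 KO and 0.320 to 0.522 CPM in P28 WT. Muscle marker genes moved the same way, at 5.90 to 7.86 CPM in 12-month KO and 11 to 13.6 CPM in 12-month WT in sum, with both tested muscle genes lower, Tnnc2, Myh4 and Myh13 below a mean of 0.1 CPM, and Pvalb, also a retinal neuron gene, in the list; their part in the Cox7a1 values was not tested. The muscle form Cox8b reached 0.211 CPM and Cox6a2 0.0868 CPM at most. Of the forms known from testis, Cox7b2 reached 0.312 CPM and Cox8c was listed at 0 in all 12 libraries, while Cox6b2 was tested and had 0.531, 0.258 and 1.09 CPM in 12-month KO and 1.72, 1.35 and 2.01 CPM in 12-month WT (log2 fold change -0.75 ± 0.19, limma adjusted p = 0.0107). Ndufa4l2, a relative of Ndufa4 known as a target of the hypoxia factor HIF1, had 0.107 to 0.218 CPM in 12-month KO and 0.0619 to 0.228 CPM in 12-month WT, and 0.463 to 0.674 CPM in P28 KO and 0.282 to 0.649 CPM in P28 WT, overlapping at both ages. The remaining untested entries were Cox5b-ps, at most 0.0562 CPM, and a second entry named Atp5o, at most 0.424 CPM.

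In complex V, 8 of 17 tested members fell and 1 rose, with 3 of 5 of the F1 head, 1 of 3 of the c ring, 2 of 4 of the peripheral stalk and 2 of 5 of the others lower. Atp5d (chr10:80138632-80145818 on GRCm38), a subunit of the central stalk, had 2.27, 0.918 and 2.91 CPM in 12-month KO and 11.8, 8.12 and 10.2 CPM in 12-month WT. The groups were far apart (log2 fold change -1.91 ± 0.28, limma adjusted p = 0.00256). Atp5b, the catalytic beta subunit and by summed RPKM the highest member of the complex (421.7 RPKM over the 12 libraries), had 659, 553 and 688 CPM in KO and 820.0, 783 and 853 CPM in WT (log2 fold change -0.38 ± 0.10, limma adjusted p = 0.0125). Atp5a1, the alpha subunit that alternates with beta in the head, had 228, 238 and 216 CPM in KO and 196, 211 and 202 CPM in WT and was not called (limma adjusted p = 0.23). Counted over its protein-coding transcripts alone it had a log2 fold change of -0.42 (limma adjusted p = 0.00692), the opposite sign.

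By summed RPKM, averaged over the 12 libraries, the tested members of each class differed widely in level. In complex I the lowest core subunit was Ndufs7 (6.36 RPKM). The highest and lowest were Ndufab1 (109.5 RPKM) and Ndufb7 (2.75 RPKM) of the accessory subunits, and Ndufaf5 (30.0 RPKM) and Ndufaf8 (1.23 RPKM) of the assembly factors. They were Sdha (149.4 RPKM) and Sdhb (19.8 RPKM) in complex II, and Uqcrb (258.7 RPKM) and Uqcr11 (2.81 RPKM) in complex III. The lowest were Cox6b2 (2.23 RPKM) in complex IV and Atp5g2 (6.33 RPKM) in complex V.

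The 3 c-ring genes encode the same mature protein and differ in their import signals. Atp5g1 (chr11:96068852-96075670 on GRCm38) had 15.3, 7.35 and 19.3 CPM in 12-month KO and 48.7, 35.3 and 51.5 CPM in 12-month WT (log2 fold change -1.70 ± 0.29, limma adjusted p = 0.00293). Atp5g3 averaged 188 ± 6.19 CPM in KO and 172 ± 9.86 CPM in WT, and Atp5g2 4.60 ± 0.679 CPM in KO and 3.95 ± 0.735 CPM in WT (SD, n = 3 libraries each; limma adjusted p = 0.447 and 0.531). Per length, Atp5g3 led in both groups, with 260.1 ± 2.68 summed RPKM in 12-month KO and 237 ± 15.0 summed RPKM in 12-month WT, while Atp5g1 had 7.61 ± 2.73 in KO and 22.3 ± 3.94 in WT (SD, n = 3 libraries each). Their coding sequences are alike and many members have processed pseudogenes, so reads could be split between copies. Atp5j (chr16:84827866-84835625 on GRCm38), coupling factor 6 of the peripheral stalk, had 142, 165 and 134 CPM in KO and 109.6, 128 and 116 CPM in WT (log2 fold change 0.32 ± 0.11, limma adjusted p = 0.0398). Its sign turned and the call was lost over protein-coding transcripts alone (-0.24, limma adjusted p = 0.178) and with GC and length trends removed (-0.0696, limma adjusted p = 0.542). Atp5k and Atp5j2, small subunits of the membrane part, had log2 fold changes of -0.99 and -0.96 (limma adjusted p = 0.00602 and 0.00813).

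**Figure D2:**
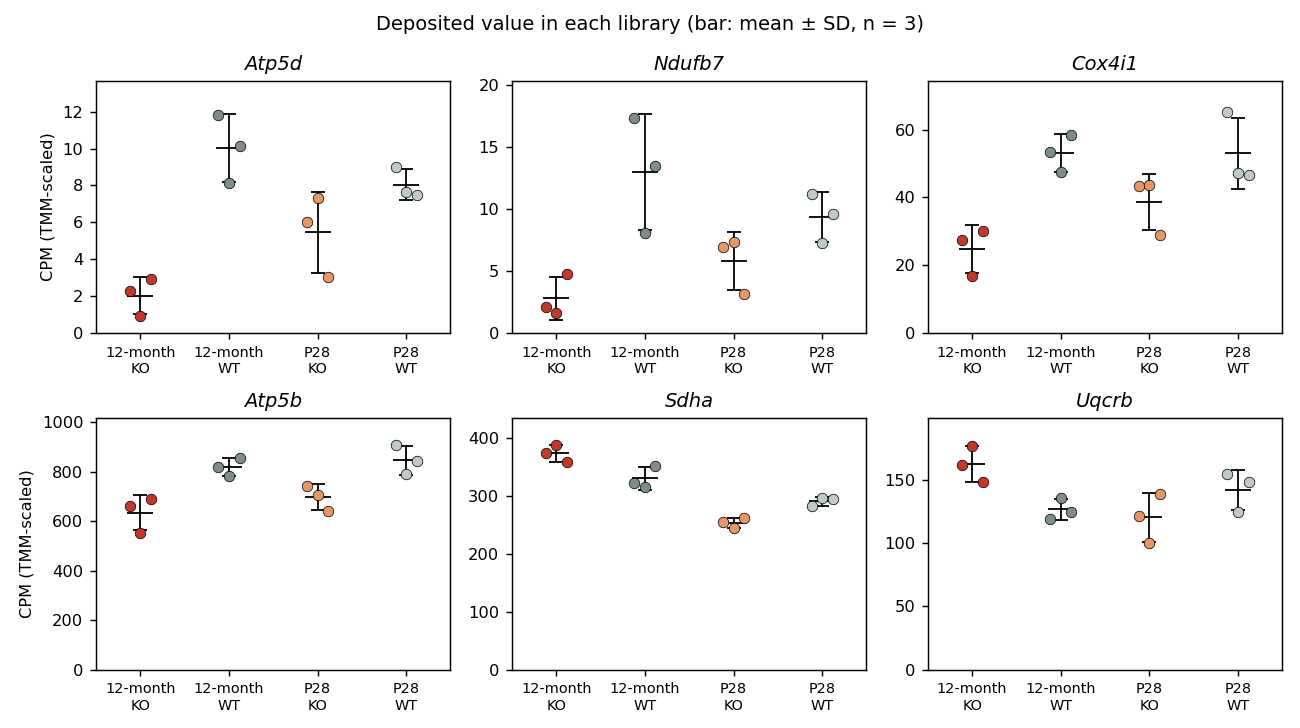
Deposited CPM (y axis, starting at 0) in each of the 12 libraries for 6 members, with groups on the x axis and the mean ± SD of 3 libraries. Atp5d, Ndufb7, Cox4i1 and Atp5b lie lower in every 12-month KO library than in every 12-month WT library, Sdha and Uqcrb higher.

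The knockout difference at 12 months was ordered by GC content among the members, as it was among all genes. GC content and length were those of the transcript with the most estimated reads. Spearman's rho between GC content and log2 fold change was -0.75 across the 88 members and -0.77 across the 16188 tested genes with a GC value. By the GC content of the transcript of highest RPKM instead, rho was -0.84 across members and -0.78 across genes. Genes share libraries and are not replicates. Below 45% GC, 1 of 13 members fell and 3 rose, against 0.611% of genes lower and 44.3% higher in that range, or 25.7% higher among genes under 1500 bases. The median log2 fold change there was 0.15 over the members and 0.33 over all genes. From 45 to 50% GC, 4 of 26 fell (6.5% of genes). From 50 to 55% GC, 22 of 28 fell (37.5% of genes), and at 55% GC or more 17 of 21 (69.4% of genes). The members were close to other genes in GC content (median 50.5% against 48.6%) but short (median 680.5 bases against 2945.5). Among genes under 1500 bases the shares lower were 1.04, 9.96, 47.1 and 73.1% over the same ranges of GC.

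**Figure D3:**
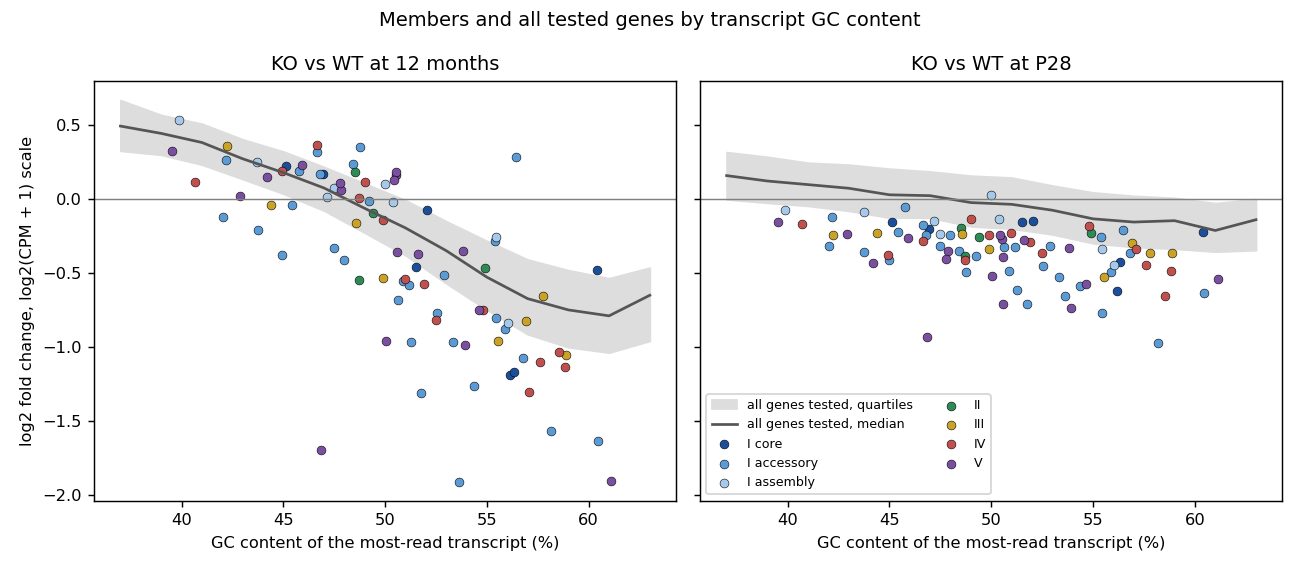
Log2 fold change (y axis) against GC content of the most-read transcript (x axis, percent) for the 88 tested members, coloured by complex, over the median and quartiles of all genes tested in steps of GC, at 12 months on the left and P28 on the right. At 12 months both slope down, with rho of -0.75 for members and -0.77 for all genes; at P28 most members lie below the median of genes.

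The same order was seen in single libraries. The rank correlation of a library's deviation from the mean of all 12 with GC content, over all genes, was -0.71 to -0.482 in 12-month KO, 0.394 to 0.606 in 12-month WT, -0.427 to 0.245 in P28 KO and 0.249 to 0.431 in P28 WT. Over the members it was -0.724 to -0.574 in 12-month KO and 0.664 to 0.751 in 12-month WT, so genotype and GC order cannot be told apart at 12 months from the deposited values alone. P28 KO library 3 had -0.721, unlike the other two of its group at 0.188 and 0.61. Members' median deviation was lowest in 12-month KO library 2, at -0.38 on the log2 scale.

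**Figure D4:**
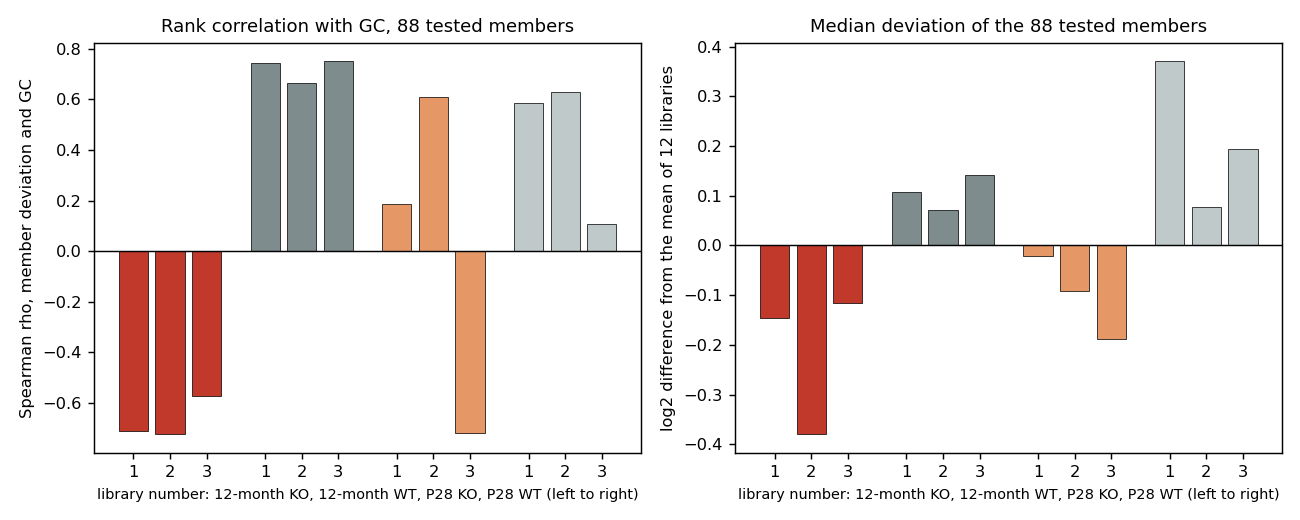
For each of the 12 libraries, the rank correlation between GC content and the deviation of the 88 tested members from their mean (left, Spearman's rho) and the median deviation of those members (right, log2). Bars start at 0. The 3 12-month KO libraries are negative in both panels and the 3 12-month WT libraries positive in both.

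With smooth GC and length trends removed from each library, 22 of 88 members (25%) were lower and 1 (Ndufb1-ps) higher at 12 months, against 7.2% and 2.24% of all genes. The median was -0.21 over the members and -0.09 over all genes. Of the 44 members called lower on the values as deposited, 20 remained, and none of the 3 called higher did. With the GC trend alone removed, 28 members were lower, against 6.58% of genes. With GC and length taken from the transcript of highest RPKM, 16 were lower, against 6.29% of genes. Atp5g1 (-1.88), Ndufb7 (-1.61), Atp5d (-1.18), Ndufa2 (-1.05) and Ndufa11 (-0.87) had limma adjusted p of 0.0146, 0.0168, 0.0117, 0.015 and 0.0241 after removal. Cox4i1 was at -0.44 (limma adjusted p = 0.0456), while Atp5b was at -0.21 and Uqcrc1 at -0.18 (limma adjusted p = 0.0902 and 0.205). By complex, 12 of 30 accessory and 1 of 7 core complex I genes were called lower after removal, 0 of 8 assembly genes, 1 of 4 in complex II, 2 of 8 in complex III, 3 of 14 in complex IV and 3 of 17 in complex V. A sex term alone kept 40 of the 44 lower calls. A sex term together with GC and length removal left 0 members called, and 0 of all genes. The median was then -0.25 over the members and -0.099 over all genes. In that fit 41 of 88 members had an unadjusted p under 0.05, and the share of all genes at that threshold is not given here. On the values as deposited, without a sex term, 56 of 88 members and 8196 of 16486 genes did.

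**Figure D5:**
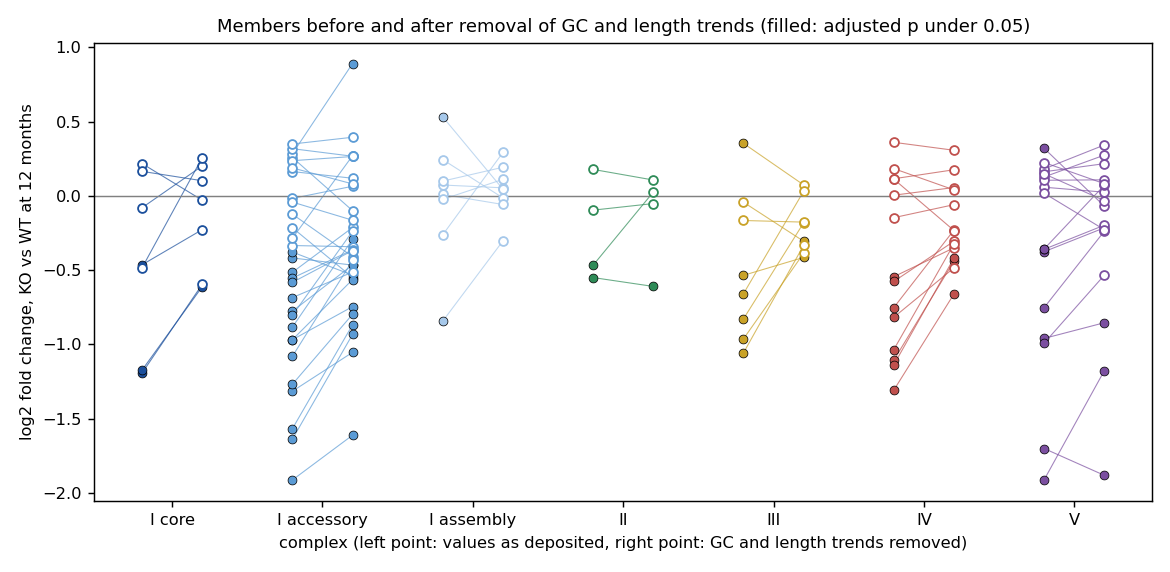
Log2 fold change of each tested member, KO against WT at 12 months (y axis), as deposited (left point) and with GC and length trends removed (right point), by complex (x axis). Filled points passed an adjusted p of 0.05: 44 lower and 3 higher before, 22 lower and 1 higher after.

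Part of the reads of these genes were assigned by the authors' quantification to transcripts not annotated as coding. Protein-coding transcripts held over 90% of the estimated reads in 40 of the 88 tested members and under 50% in 20, with a median of 87.9%. Of 70 members with both kinds of transcript, the coding share was lower in all 12-month KO libraries than in all 12-month WT libraries for 22 (31.4%) and higher for 2, against 21.3% and 9.03% of genes. In Ndufb7, whose other transcript is a retained intron, coding transcripts held 3.17% of reads in 12-month KO and 24.3% in 12-month WT on average, ranging from 0 to 9.5% and from 13.8 to 34.9%. At P28 the coding share was lower in all KO libraries for 19 (27.1%) and higher for 2, against 13.4% and 2.53% of genes. These shares rest on how reads were divided among overlapping transcripts.

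At P28 no member passed the threshold between KO and WT by limma, and 0 did with robust variance estimates, while 44 of 88 had an unadjusted p under 0.05. That number was 20 without P28 WT library 1, 14 with a sex term and 26 with GC and length trends removed. At the adjusted threshold the background was 0.491% of all genes lower and 1% higher. At an unadjusted p under 0.05 it was 3533 of 16486 genes. The sign was negative for 87 of the 88 members, against 52.3% of all genes, with a median log2 fold change of -0.33 against -0.01. Short genes, as most members are, also had negative P28 medians. Below 45%, from 45 to 50%, from 50 to 55% and at 55% GC or more, genes under 1500 bases had -0.03, -0.11, -0.25 and -0.32. The members had -0.24, -0.25, -0.33 and -0.45, lower in each range but by less than against all genes. All 3 KO libraries lay below all 3 WT libraries for 44 members (50%) and above them for 0, against 13.2% and 10.5% of genes. Members move together within a library, so these counts are not independent. Summed over all 96 members, the level was 4844 to 5480 CPM in P28 KO and 5797 to 6925 CPM in P28 WT.

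Ndufa11 had 1.55, 1.52 and 1.08 CPM in P28 KO libraries and 4.48, 3.0 and 3.63 CPM in P28 WT libraries, without overlap, and a log2 fold change of -0.97 ± 0.25 (limma adjusted p = 0.07). Cox8a had 43.6, 37.2 and 31.1 CPM in KO and 70.6, 52.3 and 55.4 CPM in WT, again without overlap, with -0.66 ± 0.18 (limma adjusted p = 0.0726). Atp5g1 had 39.6, 27.7 and 21.8 CPM in KO and 69.4, 51.1 and 49.6 CPM in WT, with -0.93 ± 0.29 (limma adjusted p = 0.106). Atp5b, Sdha and Ndufs1 had log2 fold changes of -0.28, -0.20 and -0.16 (limma adjusted p = 0.14, 0.151 and 0.284). The 3 members called higher at 12 months were at -0.08 (Ndufaf4), -0.25 (Uqcrb) and -0.16 (Atp5j) at P28.

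The P28 difference followed GC less (rho = -0.48 across members, -0.34 across genes), and across all genes followed length more (0.43). By the GC content of the transcript of highest RPKM, rho at P28 was -0.56 across members and -0.35 across genes. With GC and length trends removed, the members' P28 median was -0.18, against -0.02 over all genes, and 0 were called. With the GC trend alone removed, 6 were lower, against 1.79% of genes. Leaving out both KO libraries numbered 2, P28 library 2 being the one with the most lens transcript, gave 18 lower, against 6.47% of all genes. Leaving out P28 KO library 2 alone gave 3, against 3.12% of all genes, 12-month KO library 2 alone gave 5, against 0.898%, and P28 KO library 1 alone gave 1, against 0.528%. The difference between the knockout effects at the 2 ages passed for 0 members by limma, against 0.0971% of all genes lower and 0.0789% higher. A call at 12 months and none at P28 therefore does not show that the ages differ. At an unadjusted p under 0.05 there were 30 of 88 members, against 4397 of 16486 genes. The size of the difference was -1.36 ± 0.40 for Atp5d and 0.61 ± 0.18 for Ndufaf4 (limma adjusted p = 0.0847 and 0.0858). Without P28 KO library 3, 5 members were lower and 12 higher in this difference, against 7.8% and 7.37% of all genes, and without 12-month KO library 3, 2 were lower, against 3.09%. The 30 at an unadjusted p under 0.05 came to 15 without 12-month WT library 1, 18 without 12-month KO library 2, 19 without P28 WT library 3, 9 with a sex term and 11 with GC and length trends removed.

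Within KO retina, 12-month libraries were compared with P28 libraries. Of the 88 members 9 were lower and 8 higher at 12 months, near the background of 13.9% and 13.3% of all genes. Sdha had 374, 387 and 357 CPM in 12-month KO and 255, 244 and 261 CPM in P28 KO (log2 fold change 0.56 ± 0.07, limma adjusted p = 0.000379). Atp5d and Atp5g1 both had log2 fold changes of -1.09, Cox4i2 one of -0.67 and Cox6b1 one of -0.49 (limma adjusted p = 0.0148, 0.0172, 0.0175 and 0.0182). Ndufaf4, Uqcrb, Ndufa4 and Atp5a1 were higher, by 0.49, 0.44, 0.39 and 0.34 (limma adjusted p = 0.0145, 0.0209, 0.0305 and 0.0303). The higher call of Sdha held in all 12 fits that left out 1 library. The lower calls numbered 1 without 12-month KO library 2, 2 without P28 KO library 1, 18 without 12-month KO library 3 and 24 without P28 KO library 3, against 7.12%, 7.76%, 14.7% and 17.3% of all genes. The higher calls numbered 1 without 12-month KO library 2, 2 without 12-month KO library 1 or P28 KO library 2, 4 without P28 KO library 1, 15 without P28 KO library 3 and 5 without any 1 of the 12-month WT libraries or P28 WT library 3, while 7.86 to 16.3% of all genes were higher in these fits.

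Within WT retina, 12 months against P28 gave 0 called members by limma, against 1.75% of all genes lower and 3.65% higher. The median over the members was -0.10. At an unadjusted p under 0.05 there were 10 of 88 members, against 3207 of 16486 genes. Leaving out P28 KO library 2, which enters through the shared estimate of spread, gave 6 lower, against 4.2% of all genes, and leaving out 12-month KO library 2 gave 1, against 1.88%. The 10 at an unadjusted p under 0.05 came to 4 without P28 WT library 1, 6 without P28 WT library 3, 12-month WT library 1 or 12-month WT library 3, 16 without P28 KO library 2 or P28 WT library 2, and 4 with a sex term. The age comparisons share libraries with the knockout comparisons, so they are not separate evidence.

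Other genes of oxidative metabolism were counted the same way. Of 13 protein genes of the mitochondrial genome, which encode the partner subunits, 0 were lower and 9 higher in 12-month KO, with a median of 0.68, and their sum was 100100 to 134100 CPM in KO and 67960 to 79250 CPM in WT. At P28 0 were called, with a median of -0.65 and sums of 41220 to 69830 CPM in KO and 68750 to 90020 CPM in WT. Nuclear and mitochondrial subunits therefore had medians of opposite sign at 12 months and of the same sign at P28. The most-read transcripts of the mitochondrial genes were 31.9 to 41.1% G and C. Of all genes below 45% GC, 44.3% were higher at 12 months, with a median of 0.33. At P28 the share was 1.9% and the median 0.09. The part of GC content in the opposite signs was not tested. Of all deposited signal, the nuclear members took 0.466 to 0.519% in 12-month KO, 0.583 to 0.620% in 12-month WT, 0.510 to 0.567% in P28 KO and 0.604 to 0.699% in P28 WT.

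Cytochrome c and ubiquinone genes gave 8 of 16 lower and 5 higher at 12 months (median -0.56) and 2 lower at P28. Cyc1, the cytochrome c1 of complex III, had a log2 fold change of -1.43 ± 0.25, and Cycs, cytochrome c itself, 0.78 ± 0.18 (limma adjusted p = 0.00298 and 0.00617). Their most-read transcripts were 55.7% and 40.8% G and C. Assembly factors with other names gave 14 of 43 lower and 5 higher at 12 months (median -0.10), and the citric acid cycle 7 of 14 lower and 2 higher (median -0.31), including Mdh2 at -0.81 and Idh2 at -0.86 (limma adjusted p = 0.00528 and 0.00614). Regulators of mitochondrial gene expression gave 3 of 22 lower and 5 higher (median 0.09). The background for these lists was 23.5% of all genes lower and 16.1% higher at 12 months (median -0.03). At P28 it was 0.491% lower and 1% higher.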

How the data were processed

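The data are 12 libraries of poly(A) RNA from whole retina, grouped by their labels into 4 groups of 3 by genotype and age. Per the labels' protocols, stranded libraries were read as 125-base pairs. The submitters' processing notes name kallisto 0.45.0 with Ensembl 102 for quantification and edgeR 4.0.3 for scaling; those notes name a human reference, but the deposited identifiers are mouse. Whether the strand was used in counting is not given in the sources used here. For genes the authors deposited a signal, the CPM of a TMM-scaled library, not logged. The transcript values are RPKM deposited by the authors. Neither holds counts, and the estimates are not whole reads, so no count model was used. The processing can move values between genes of different GC content and length, and between transcripts of a gene.

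Genes with a value of at least 1 in at least 3 libraries were tested on log2(value + 1), which understates folds of low genes, by limma 3.58.1 (R 4.3.3). All 12 libraries entered 1 fit of 4 group means with trended eBayes, two-sided tests and Benjamini-Hochberg adjustment over all genes at 0.05, and 5 contrasts were drawn. The script recovered large changes put into simulated data, in which genes were drawn independently. Changes as small as those of most members were not simulated. GC and length trends were splines of 5 degrees of freedom fitted in each library over the 98.2% of tested genes with both values, from GENCODE transcripts on GRCm38. Depth came from a library's commonest low value above 0, taken as 1 read, and the floor is 3 reads. Of a library's low values 10.9 to 28.3% were whole reads on that scale, so depth and floor are estimates. Sex was read from Xist, with 100 CPM as the limit, and Y-linked genes.

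The members, lists, naming rule and tests were chosen with earlier results of these data known. Named by the rule were, per complex and contrast, up to 4 members called lower and 3 called higher by smallest p, up to 5 per direction in the age contrasts, a fixed set of catalytic subunits and tissue isoforms, the highest and lowest levels, and members outside the filter. Ndufb1-ps, the other c-ring genes, Cyc1, Cycs, Mdh2, Idh2 and members given with P28 or trend-removed values were chosen after their values were seen. One member that the rule names is in the counts but is not reported here by name. Alternatives covered pseudocounts of 0.1 and 5, filters, quantile and median-of-ratios scaling, summed transcript RPKM, robust eBayes, a sex term, a replicate block, the compared groups fitted alone, GC and length trends, an adjusted p of 0.10 and each library left out.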

Additional observations from a re-analysis of the deposited data

How the results depend on the processing

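Of members lower in KO at 12 months, 44 as reported, the count was 29 to 45 when each library was left out in turn, 22 with GC and length trends removed, 28 with the GC trend alone, 16 with GC and length of the transcript of highest RPKM and 0 with GC and length trends removed and a sex term. Members higher there (3) came to 1 to 10 with a library left out, 7 with median-of-ratios rescaling or only the groups compared, 9 at an adjusted p of 0.10, 1 with no filter, the replicate block, the sex term, GC and length trends removed, the GC trend removed or coding transcripts alone, and 0 with GC and length trends removed and a sex term or with the transcript of highest RPKM. Members lower at P28 (0) came to 0 to 5 with a library left out, 3 with quantile normalization, 10 at an adjusted p of 0.10, 6 with the GC trend removed, 4 with coding transcripts alone and 18 without both KO libraries numbered 2; members higher at P28 stayed at 0 in every alternative.

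For the difference between ages (0 and 0), lower members came to 0 to 5 and higher members to 0 to 12 with a library left out, and to 2 and 7 at an adjusted p of 0.10. For 12 months against P28 in KO, the 9 lower came to 1 to 24 with a library left out, 5 with no filter, the sex term or the GC trend removed, 1 with only the groups compared or without both KO libraries numbered 2, 23 at an adjusted p of 0.10 and 4 with GC and length trends removed and a sex term. The 8 higher came to 1 to 15 with a library left out, 2 with no filter or the transcript of highest RPKM, 1 with only the groups compared, the sex term, both KO libraries numbered 2 left out or GC and length trends removed and a sex term, 5 with the replicate block, 3 with GC and length or the GC trend removed, 14 at an adjusted p of 0.10 and 4 with coding transcripts alone. In WT the 0 lower came to 0 to 6 with a library left out, 1 with quantile normalization, summed transcript RPKM, the replicate block, GC and length trends, the GC trend or the transcript of highest RPKM, 5 with only the groups compared, 2 at an adjusted p of 0.10 and 7 without both KO libraries numbered 2; the 0 higher came to 1 with summed transcript RPKM and with coding transcripts alone, and stayed at 0 with each library left out.

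Signs turned for Sdhb at 12 months with GC and length trends removed (0.0257), also with a sex term (0.0229) and with the transcript of highest RPKM (0.0352). They turned for Uqcrb at 12 months with the GC trend removed (-0.0403). They turned for Atp5j at 12 months with GC and length trends removed (-0.0696), the GC trend removed (-0.18), coding transcripts alone (-0.24), GC and length with a sex term (-0.12) and the transcript of highest RPKM (-0.0696). Atp5a1 turned with coding transcripts alone at 12 months (-0.42) and with age in KO (-0.0714). The causes were not tested. The added alternatives (the GC trend alone, coding transcripts, both KO libraries numbered 2 left out, GC and length with a sex term, the transcript of highest RPKM) were chosen after seeing the data. The replicate numbers share a number and no stated animal: deviations of same-numbered libraries correlated at 0.0989, 0.308 and 0.156 at 12 months and 0.0879, -0.107 and 0.0476 at P28. With the replicate block 44 members were lower and 1 higher at 12 months, and 0 were called at P28. Depth limits members near the floor, such as Ndufa11 and Uqcr11.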
